A study of Mus musculus with 8 samples.

Results

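The enzymes described here make, convert and consume citrate. They are Cs, Aco1, Acly, Idh1, Idh2, Idh3a, Mdh1 and Mdh2, and a probe set was taken when the platform annotation gave it exactly one of these symbols. All 8 genes were on the array, with 22 probe sets among the 22626 that were tested, and no probe set was dropped. The RNA was from ventral prostate, and all mice were FVB males at 8 weeks of age. The wild-type group had 4 arrays and the other group had 4 arrays from mice that express polyoma middle T antigen (MT) as a transgene in the prostate. The labels give no other allele or treatment, the sources used here do not name the promoter that drives the transgene, and nothing says whether each array stands for its own animal. The p-values therefore cover only the spread among these arrays, some of which may be technical. The study compared normal prostate with the carcinoma that MT induces.

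In the citrate (TCA) cycle, citrate synthase joins acetyl groups to oxaloacetate, isocitrate dehydrogenase forms 2-oxoglutarate from the isocitrate that citrate gives, and malate dehydrogenase restores oxaloacetate. Several of these steps also exist in the cytosol as separate proteins from separate genes, and there ATP citrate lyase splits exported citrate to supply acetyl groups for lipids. Secretory epithelium of the prostate is known for storing and secreting citrate, a property linked to zinc, and prostate carcinoma is known for losing it.

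Values are log2 levels from RMA, which summarises the probes of a probe set, and differences are MT minus wild type. A probe set was called when limma's moderated test, two-sided and adjusted by Benjamini-Hochberg over the 22626 probe sets, gave an adjusted p under 0.05. Errors of means are SD over 4 arrays and errors of differences are standard errors of the limma fit. Only for the pairs of enzymes are they standard errors from the SD of each group. Levels of different probe sets were not set against each other, since each has its own response.

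Both malate dehydrogenases and both NADP-dependent isocitrate dehydrogenases are shown by their promoter sequence. They were chosen because within each pair the cytosolic and the mitochondrial gene changed unequally between the groups, although Idh1 was not called on its own. The 250 bases before the annotated start are RefSeq sequence of build GRCm38.p6 from the C57BL/6J reference, not from FVB mice, and 7 of the 8 genes had an entry. Capitals mark the GC box (GGGCGG) on either strand and, in Mdh2, the palindrome CTCGCGAG. Idh1 had 2 entries, and the one nearest to the annotated start of the gene is shown. The Mdh2 promoter lies at chr5:135778399-135778648 on the plus strand, that of Mdh1 at chr11:21571935-21572184 on the minus strand, that of Idh1 at chr1:65186480-65186729 on the minus strand and that of Idh2 at chr7:80115351-80115600 on the minus strand. Each is written 5′ to 3′ along its gene.
Mdh2: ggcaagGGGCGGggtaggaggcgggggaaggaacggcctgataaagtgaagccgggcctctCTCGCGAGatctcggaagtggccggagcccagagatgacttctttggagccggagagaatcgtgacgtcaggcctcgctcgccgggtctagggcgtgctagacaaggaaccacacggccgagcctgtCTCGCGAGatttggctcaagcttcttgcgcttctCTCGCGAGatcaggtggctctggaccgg
Mdh1: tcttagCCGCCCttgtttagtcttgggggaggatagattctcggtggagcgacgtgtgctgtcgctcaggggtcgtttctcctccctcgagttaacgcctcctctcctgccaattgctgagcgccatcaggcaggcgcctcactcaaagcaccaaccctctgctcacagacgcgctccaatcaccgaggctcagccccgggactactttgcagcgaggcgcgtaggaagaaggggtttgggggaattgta
Idh1: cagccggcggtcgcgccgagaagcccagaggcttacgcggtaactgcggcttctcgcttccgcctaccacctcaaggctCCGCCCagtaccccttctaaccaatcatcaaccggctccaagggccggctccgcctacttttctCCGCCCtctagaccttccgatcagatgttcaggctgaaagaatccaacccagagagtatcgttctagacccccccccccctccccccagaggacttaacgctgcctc
Idh2: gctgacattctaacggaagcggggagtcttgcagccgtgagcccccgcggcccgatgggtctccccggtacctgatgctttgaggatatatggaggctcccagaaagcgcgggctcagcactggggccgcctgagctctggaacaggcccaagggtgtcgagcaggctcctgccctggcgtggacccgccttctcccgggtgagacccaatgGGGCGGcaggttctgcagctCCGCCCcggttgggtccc

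The GC box is a common promoter element, found in 32.7% of 32851 promoters of the same length, and all 7 promoters held it. The ETS core (CCGGAAG, 6.91% of promoters), the E-box (CACGTG, 6.02%), the NRF1 core (TGCGCA, 6.43%) and a sterol response element (TCACNCCAC, 1.05%), searched on both strands and none of them contained in another, had no match in any of the 7. The palindrome CTCGCGAG was added after the sequences had been seen. It occurred 3 times in the Mdh2 promoter, in none of the other 6, and in 250 of the 32851 promoters (0.761%). The Mdh2 promoter held 23 CpG dinucleotides and that of Mdh1 17, where the median of all promoters was 6. The others were above this median too, with 18 in Idh1, 17 in Idh2, 14 in Acly, 13 in Cs and 10 in Aco1. The share of all promoters with a GC box was not matched for CpG content.

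The MT prostate did not shift the enzymes of the cycle one way. Of the 22 probe sets, 6 were higher, 4 lower and 12 not called. Among all 22626 probe sets 37.8% were called, 18.1% higher and 19.7% lower. Counted by probe set, the members' 10 of 22 (45.5%) thus lay near the background. At the brightest probe set of each gene, 3 of the 8 members were higher and 3 lower (75% called). Over all genes 19.3% were higher and 20.7% lower. Counted by gene, the members were thus called more often, though this rests on only 8 genes. Groups did not overlap for 10 of the 22, where 37.5% of all probe sets did not. The differences were small, with a largest size of 0.78 on the log2 scale (1.71-fold), a median size of 0.24 against 0.17 over all probe sets, and a median difference of 0.11 against -0.01. None of the 22 reached a 2-fold change, which 1028 of the 22626 did. The mitochondrial enzymes Idh3a and Mdh2 rose with every one of their probe sets, while Idh2, also mitochondrial, and the cytosolic Mdh1 fell.

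**Figure D1:**
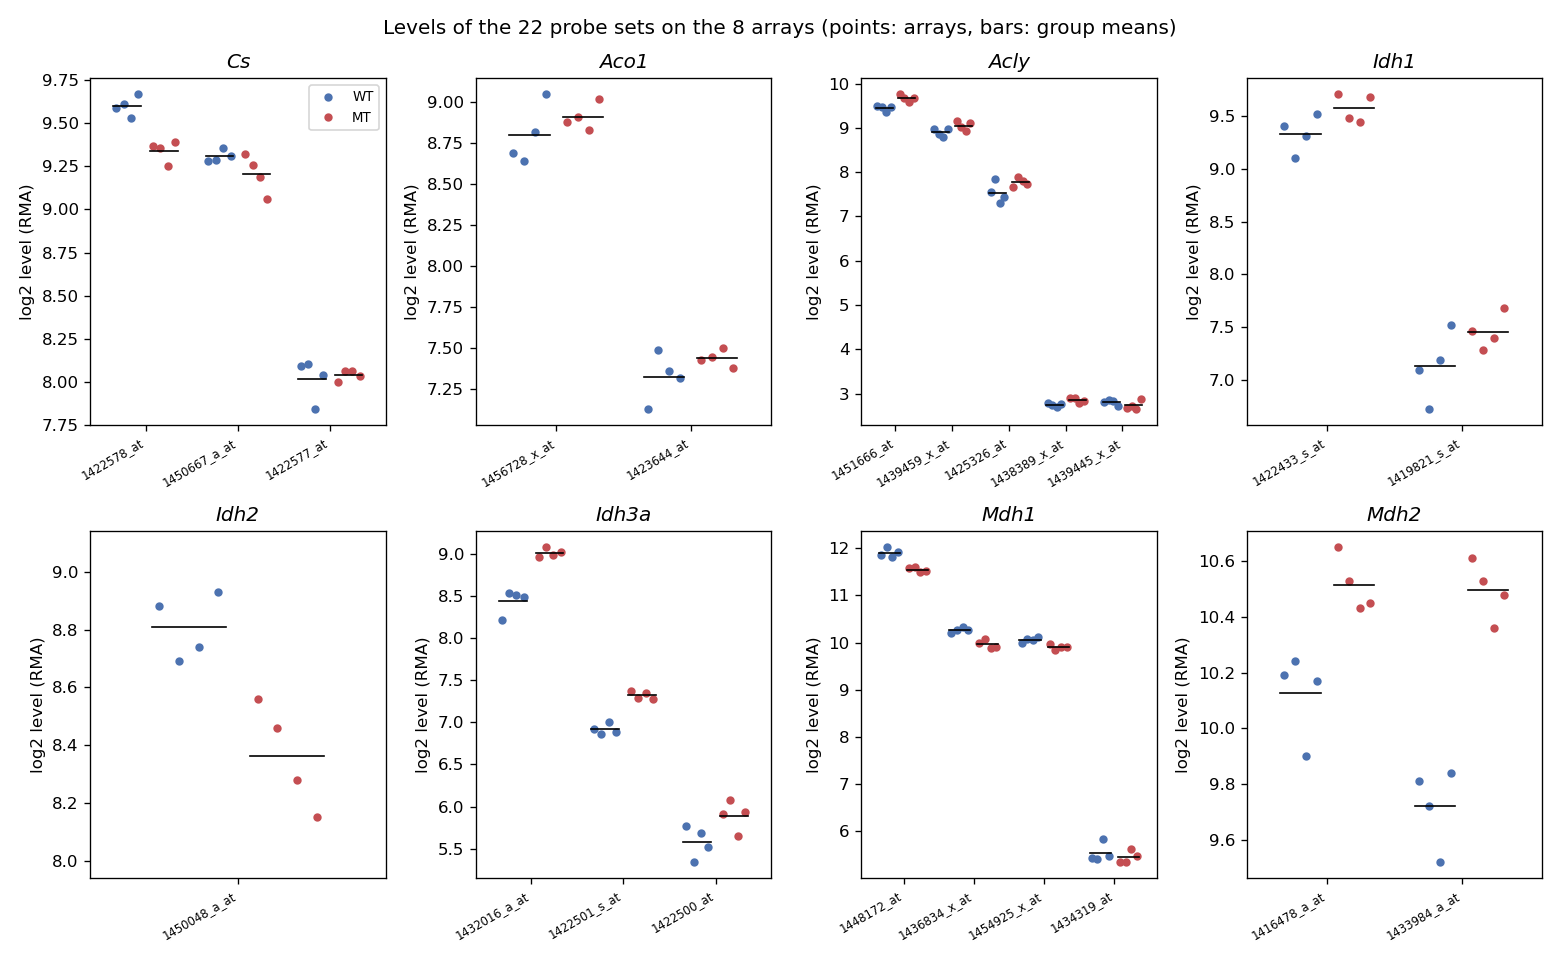
Log2 level (RMA, vertical axis) of each of the 22 probe sets (horizontal axis) in 8 panels, 1 per gene, with blue points for the 4 wild-type arrays, red points for the 4 MT arrays and black bars for group means. Both probe sets of Mdh2 and the single one of Idh2 show groups that do not overlap, in opposite directions, while those of Aco1 overlap.

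Citrate synthase, which forms citrate in mitochondria, was lower in MT at the probe set with its highest signal. Cs (1422578_at) read 9.59, 9.61, 9.53 and 9.67 on the wild-type arrays and 9.37, 9.36, 9.25 and 9.39 on the MT arrays. All 4 MT values lay below the wild-type values, and the difference was -0.26 ± 0.06 (adjusted p = 0.00772, limma). The other probe sets of Cs did not share it. At 1450667_a_at wild type had 9.31 ± 0.04 and MT 9.21 ± 0.11 (SD, n = 4), a difference of -0.10 (95% interval -0.26 to 0.05, limma adjusted p = 0.284). At 1422577_at wild type had 8.02 ± 0.12 and MT 8.04 ± 0.03 (SD, n = 4), a difference of 0.02 (95% interval -0.14 to 0.18, limma adjusted p = 0.864). Averaged over its probe sets, Cs had a difference of -0.11 (limma adjusted p = 0.106), so the call rests on 1 of 3 probe sets.

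Aco1, the cytosolic aconitase, which in low iron becomes an RNA-binding regulator of iron genes, was not called. Its probe set 1456728_x_at read 8.69, 8.64, 8.82 and 9.05 in wild type and 8.88, 8.91, 8.83 and 9.02 in MT, and the groups overlapped. The difference was 0.11 (95% interval -0.10 to 0.31, limma adjusted p = 0.410). At 1423644_at the wild-type values ran from 7.13 to 7.49 and the MT values from 7.38 to 7.50, with a difference of 0.12 (95% interval -0.06 to 0.29, limma adjusted p = 0.286). Both intervals include 0 and also include differences as large as the 0.22 called at an Acly probe set. Leaving out single arrays moved the values from 0.05 (without wild-type array 2) to 0.19 (without wild-type array 4) at 1456728_x_at and from 0.05 (without wild-type array 1) to 0.17 (without wild-type array 2) at 1423644_at.

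The 3 isocitrate dehydrogenases went separate ways. Idh3a encodes the catalytic subunit of the mitochondrial NAD-dependent enzyme, the one that runs in the forward cycle, and it rose. At 1432016_a_at the wild-type arrays read 8.22, 8.54, 8.51 and 8.49 and the MT arrays 8.96, 9.08, 8.99 and 9.02. Every MT value was above every wild-type value, with a difference of 0.57 ± 0.08 (adjusted p = 0.000193, limma). At 1422501_s_at the levels were 6.92, 6.86, 7.0 and 6.88 in wild type and 7.37, 7.29, 7.35 and 7.28 in MT, again without overlap (0.41 ± 0.06, adjusted p = 0.000371, limma). The dimmest probe set of the gene, 1422500_at, had wild-type values of 5.34 to 5.77 and MT values of 5.65 to 6.08, with overlap (0.31 ± 0.11, adjusted p = 0.0456, limma). That last call did not hold when wild-type array 2 or 4 or MT array 1, 2 or 4 was left out, at limma adjusted p-values from 0.0915 to 0.129, and also with array weights (0.0563) or renewed quantile normalization (0.0580).

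Idh2, the mitochondrial NADP-dependent enzyme, fell. Its single probe set, 1450048_a_at, read 8.88, 8.69, 8.74 and 8.93 in wild type and 8.56, 8.46, 8.28 and 8.15 in MT. The MT values were all lower and more spread than those of wild type, and the difference was -0.45 ± 0.10, a 1.36-fold reduction (adjusted p = 0.00367, limma). Probe sets with the letter a in their name match several transcripts of one gene, and no unique-type probe set of Idh2 was there to compare.

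Idh1, the cytosolic and peroxisomal NADP-dependent enzyme, was not called at either probe set, although both differences were upward. At 1422433_s_at wild type read 9.41, 9.10, 9.31 and 9.52 and MT read 9.71, 9.48, 9.45 and 9.68, with a difference of 0.24 (95% interval 0.02 to 0.46, limma adjusted p = 0.0792). At 1419821_s_at the values were 7.09, 6.72, 7.19 and 7.52 in wild type and 7.46, 7.28, 7.40 and 7.68 in MT, with a difference of 0.32 (95% interval from just below 0 to 0.65, limma adjusted p = 0.109). Wild-type array 4 was the highest of its group at both and overlapped the MT values. Without it the differences were 0.31 and 0.46 and both passed (limma adjusted p = 0.0360 and 0.0161), whereas without wild-type array 2, the lowest of the group, they were 0.16 and 0.19 and did not pass.

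The malate dehydrogenases moved in opposite directions. Mdh2, the mitochondrial enzyme of the cycle, had the largest change among the 22 probe sets, at 1433984_a_at. There the wild-type arrays read 9.81, 9.72, 9.52 and 9.84 and the MT arrays 10.61, 10.53, 10.36 and 10.48. The lowest MT value was well above the highest wild-type value, and the difference of 0.78 ± 0.09 (adjusted p = 3.78e-05, limma) was larger than that of 92.4% of all probe sets. At 1416478_a_at the levels were 10.19, 10.24, 9.90 and 10.17 in wild type and 10.65, 10.53, 10.43 and 10.45 in MT, a difference of 0.39 ± 0.09 (adjusted p = 0.00484, limma). Both probe sets of Mdh2 placed the groups apart, but they differed from each other in the size of the change.

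Mdh1, the cytosolic partner that works in the malate-aspartate shuttle, fell at 2 of 4 probe sets. The brightest, 1448172_at, read 11.86, 12.02, 11.82 and 11.91 in wild type and 11.57, 11.59, 11.50 and 11.52 in MT (-0.36 ± 0.07, adjusted p = 0.00142, limma). At 1436834_x_at the wild-type values of 10.20, 10.27, 10.32 and 10.26 stood above the MT values of 9.98, 10.07, 9.89 and 9.91 (-0.30 ± 0.07, adjusted p = 0.00380, limma). In both the groups were fully apart. At 1454925_x_at wild type had 10.06 ± 0.04 and MT 9.90 ± 0.05 (SD, n = 4), also without overlap, with a difference of -0.16 (95% interval -0.29 to -0.02) that missed the threshold (limma adjusted p = 0.0607) but passed with limma's trended robust prior (0.0354) and with only probe sets above the median level (0.0328). At 1434319_at, which had the lowest signal, wild type ran from 5.42 to 5.85 and MT from 5.35 to 5.62, with a difference of -0.09 (95% interval -0.32 to 0.14, limma adjusted p = 0.528). Without wild-type array 3, the high one, this last difference was 0.0064, so its sign rests on that array.

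Acly, which splits citrate in the cytosol into acetyl-CoA and oxaloacetate, rose at 1 of 5 probe sets. At 1451666_at it read 9.50, 9.47, 9.36 and 9.48 in wild type and 9.76, 9.67, 9.59 and 9.67 in MT. The groups did not overlap (0.22 ± 0.06, adjusted p = 0.0204, limma), though without MT array 1 the difference was 0.19 and the call was lost (limma adjusted p = 0.0635). At 1439459_x_at wild type had 8.90 ± 0.09 and MT 9.05 ± 0.11 (SD, n = 4), a difference of 0.15 (limma adjusted p = 0.144). At 1425326_at wild type had 7.53 ± 0.23 and MT 7.78 ± 0.10 (SD, n = 4), a difference of 0.25 (limma adjusted p = 0.0989), which became 0.35 and passed without wild-type array 2 (limma adjusted p = 0.00826), but was 0.17 and not called without wild-type array 3. The remaining probe sets, 1438389_x_at and 1439445_x_at, lay between 2.65 and 2.91 on all 8 arrays. Control probe sets for Bacillus transcripts read from 2.57 to 3.90, and both Acly probe sets were at or below the highest such control on 8 of 8 arrays, so they carry no level of the gene. Averaged over all its probe sets, these included, Acly had a difference of 0.13 (limma adjusted p = 0.0883).

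**Figure D2:**
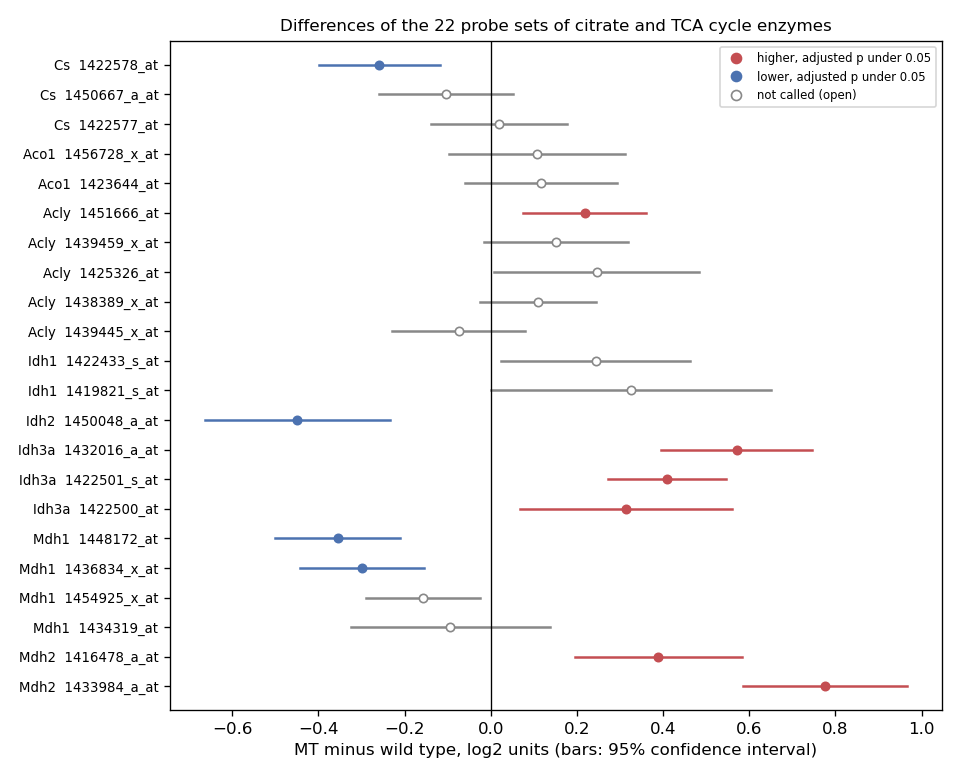
MT minus wild type in log2 units (horizontal axis) for each probe set (vertical axis), with 95% confidence intervals from limma, n = 4 arrays per group. Red marks the 6 called higher, blue the 4 called lower and open grey the 12 not called. The 3 probe sets of Idh3a and the 2 of Mdh2 lie to the right of 0, and all 4 of Mdh1 and the single one of Idh2 lie to the left.

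Opposite shifts within an enzyme pair were tested by taking, on each array, the log2 value of the cytosolic gene minus that of its mitochondrial partner at the brightest probe set of each. This shows unequal change and not which gene changed. The value of Idh1 minus Idh2 was 0.53, 0.40, 0.57 and 0.59 in wild type and 1.15, 1.02, 1.16 and 1.53 in MT. It was thus higher on all 4 MT arrays, by 0.69 ± 0.12. The value of Mdh1 minus Mdh2 was 1.67, 1.78, 1.92 and 1.74 in wild type and 0.92, 1.06, 1.08 and 1.06 in MT, lower in MT (-0.74 ± 0.06). The third pair set Acly, which consumes citrate in the cytosol, against Cs, which makes it in mitochondria. Acly minus Cs was -0.08, -0.14, -0.17 and -0.20 in wild type and 0.39, 0.31, 0.34 and 0.28 in MT, higher by 0.48 ± 0.03, or by 0.24 when all probe sets of each gene were averaged. The groups did not overlap in any of these 3 pairs, and each had an exact two-sided permutation p of 0.0286, the smallest that 70 assignments of 8 arrays allow, and 0.0286 again after Benjamini-Hochberg adjustment over the 3. For Mdh1 minus Mdh2 and Acly minus Cs this outcome was fixed beforehand. At these probe sets the groups of each gene were already apart, in opposite directions, so the test adds nothing to those calls. For Idh1 minus Idh2 the outcome was not fixed, since the Idh1 groups overlapped. At these probe sets Idh1 was thus higher in MT relative to Idh2, and Acly relative to Cs, while Mdh1 was lower relative to Mdh2. Idh3a, the mitochondrial NAD-dependent enzyme, was not part of a pair. The calls of Acly and of Cs each rest on 1 probe set.

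**Figure D3:**
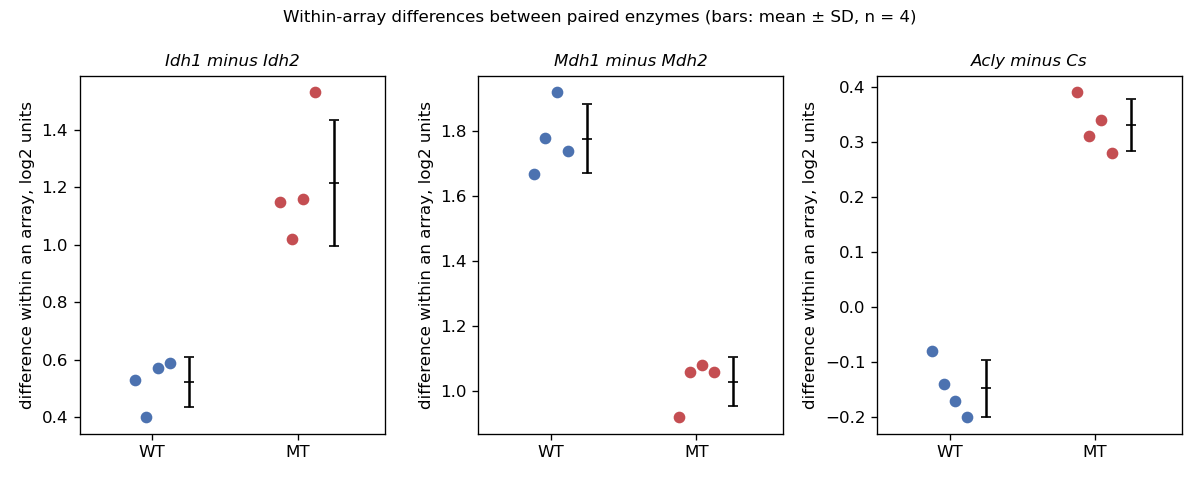
Within-array log2 difference between the genes of a pair (vertical axis, log2 units) for wild-type (blue) and MT (red) arrays, with black bars for mean ± SD, n = 4. In each of the 3 panels the 4 MT points are separate from the 4 wild-type points, above them for Idh1 minus Idh2 and Acly minus Cs and below them for Mdh1 minus Mdh2.

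The other enzymes of the cycle, read at the brightest probe set of each gene, were mostly lower or not called. Of 13 measured, 6 were lower and 1 was higher, with a median difference of -0.19. Over the 12393 genes 20.7% were lower and 19.3% higher, with a median of -0.01. Dld, the dihydrolipoamide dehydrogenase shared by several mitochondrial complexes, had the largest fall, from 8.13 ± 0.16 to 7.56 ± 0.20 (SD, n = 4; -0.56 ± 0.11, adjusted p = 0.00192, limma). Suclg2, a subunit of succinyl-CoA synthetase, fell from 8.13 ± 0.13 to 7.64 ± 0.14 (SD, n = 4; -0.49 ± 0.09, adjusted p = 0.00128, limma). Sdha, the flavoprotein of succinate dehydrogenase, fell by 0.23 on the log2 scale (limma adjusted p = 0.0183), whereas its membrane anchor Sdhd rose by 0.24 (limma adjusted p = 0.0252). The remaining lower genes, Sdhb (-0.23), Sucla2 (-0.21) and Fh1 (-0.19), were named after their values were seen, as were the other subunits of the Idh3a enzyme, Idh3b (0.11, limma adjusted p = 0.171) and Idh3g (0.11, limma adjusted p = 0.246). Idh3g had a further probe set, which was called higher, with a difference of 0.34. The 6 lower calls became 2 without MT array 3 and 3 without either wild-type array 4 or MT array 4. The call of Sdhd was lost without any of wild-type array 3 and MT arrays 2 and 3, at limma adjusted p-values from 0.0584 to 0.0729, and when its probe sets were averaged (0.17, limma adjusted p = 0.0866), and that of Sdha without MT array 3 (limma adjusted p = 0.0532).

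Genes that admit pyruvate to the cycle split. Of 9 measured, 2 were higher and 2 lower, near the shares of 19.3% and 20.7% over all genes, with a median of -0.15. With probe sets averaged per gene 4 were lower and 2 higher. Pdhb and Dlat, subunits of the pyruvate dehydrogenase complex named after their values were seen, each had 1 probe set called lower (-0.44 and -0.32) that was not the brightest of the gene. Among the kinases that switch off pyruvate dehydrogenase, Pdk1 rose from 6.78 ± 0.13 to 7.18 ± 0.04 (SD, n = 4; 0.40 ± 0.08, adjusted p = 0.00154, limma) and Pdk3 by 0.25 (limma adjusted p = 0.0273), while Pdk2 fell from 8.37 ± 0.10 to 7.94 ± 0.14 (SD, n = 4; -0.44 ± 0.08, adjusted p = 0.00170, limma). Mpc1, a subunit of the mitochondrial pyruvate carrier, fell from 9.54 ± 0.19 to 9.11 ± 0.07 (SD, n = 4; -0.44 ± 0.09, adjusted p = 0.00329, limma). The call of Pdk3 was lost without any of wild-type array 1 and MT arrays 1, 2 and 3, at limma adjusted p-values from 0.0618 to 0.0751.

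Genes of malate, aspartate and glutamate exchange had 3 higher and 3 lower of 8 measured, with a median of -0.02. Over all genes 19.3% were higher and 20.7% lower. The aspartate aminotransferases, which work beside the malate dehydrogenases in the malate-aspartate shuttle, again moved in opposite directions. Got2, the mitochondrial form, rose from 9.68 ± 0.12 to 10.37 ± 0.04 (SD, n = 4; 0.69 ± 0.07, adjusted p = 2.18e-05, limma). Got1, the cytosolic form, fell from 7.62 ± 0.16 to 7.11 ± 0.06 (SD, n = 4; -0.52 ± 0.08, adjusted p = 0.000600, limma). Mdh2 and Got2 were thus higher and Mdh1 and Got1 lower on the same arrays. Not every mitochondrial gene of the list rose. The remaining lower genes, Slc25a11 (-0.33, limma adjusted p = 0.00534) and Glud1 (-0.31, limma adjusted p = 0.0105), are mitochondrial too. Both were named after their values were seen. Slc25a13, an aspartate-glutamate carrier, rose by 0.50 (limma adjusted p = 0.0146), with MT values that ranged widely (SD 0.33, n = 4). Me1, the cytosolic malic enzyme, rose by 0.39 (limma adjusted p = 0.00181).

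For citrate transport and use outside the members, 7 of the 9 listed genes were measured, and Slc25a1 and Slc13a5 had no probe set annotated to them alone. Of the 7 measured genes, 0 were called in limma, where 19.3% of all genes were higher and 20.7% lower. An unadjusted limma p under 0.05 was found for 0 of the 7, against 5963 of all 12393 genes. Among them, Slc13a3 read 3.39 to 3.77 in wild type and 3.56 to 3.73 in MT. These values lay below the highest Bacillus control value of 3.90, so no change could be judged for Slc13a3. The gene with the highest level was Ankh, a membrane transporter reported to export citrate (listed by the annotation as Ank), at 11.39 ± 0.62 in wild type and 10.94 ± 0.21 in MT (SD, n = 4; limma adjusted p = 0.185). Its difference of -0.45 had a 95% interval from -1.0 to 0.10, and without wild-type array 4 it was -0.72 and passed (limma adjusted p = 0.00862), while without wild-type array 2 it was -0.21 and did not. Fasn, the fatty acid synthase downstream of Acly, differed by -0.14 (95% interval -0.30 to 0.01, limma adjusted p = 0.145), and was named after its value was seen.

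Of 5 measured iron genes that the RNA-binding form of Aco1 is known to regulate or that belong to its circuit, 2 were higher and 0 lower. The shares over all genes were 19.3% higher and 20.7% lower. Slc40a1, the iron exporter ferroportin, rose from 6.25 ± 0.33 to 7.97 ± 0.19 (SD, n = 4; 1.72 ± 0.15, adjusted p = 6.78e-06, limma). Tfrc, the transferrin receptor, rose from 7.60 ± 0.03 to 8.77 ± 0.38 (SD, n = 4; 1.17 ± 0.15, adjusted p = 0.000124, limma), though its 3 probe sets ranged from 0.13 to 1.17. The related regulator Ireb2 differed by -0.03 (95% interval -0.26 to 0.19, limma adjusted p = 0.836) and the ferritin gene Fth1 by -0.03 (95% interval -0.21 to 0.14, limma adjusted p = 0.793). Both were named after their values were seen.

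Genes that track mitochondrial number and import gave 3 higher and 1 lower of 11, with a median of 0.06, where 19.3% of all genes were higher and 20.7% lower. The balance depended on the probe set rule, since averaging per gene gave 1 higher and 2 lower. Tomm20, an import receptor of the outer membrane named after its values were seen, had 3 of 5 probe sets called lower, and its differences ran from -0.31 to -0.17. Tomm40, the import pore of the outer membrane, rose by 0.29 (limma adjusted p = 0.00367), and Vdac1, an outer-membrane channel, by 0.20 (limma adjusted p = 0.0398). Gabpa and Nrf1, transcription factors of mitochondrial genes, went opposite ways, Gabpa falling by 0.40 (limma adjusted p = 0.00644) and Nrf1 rising by 0.23 (limma adjusted p = 0.0295). The mean level of the 11 genes was 8.25 to 8.34 on the wild-type arrays and 8.28 to 8.34 on the MT arrays. Leaving out wild-type array 2 or 4 or any MT array ended the Vdac1 call, and leaving out wild-type array 2 or 3 or MT array 1, 2 or 3 ended the Nrf1 call. Averaging probe sets ended both as well (Vdac1 0.07, limma adjusted p = 0.398; Nrf1 0.12, limma adjusted p = 0.141). A further Gabpa probe set had a difference of 0.01.

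**Figure D4:**
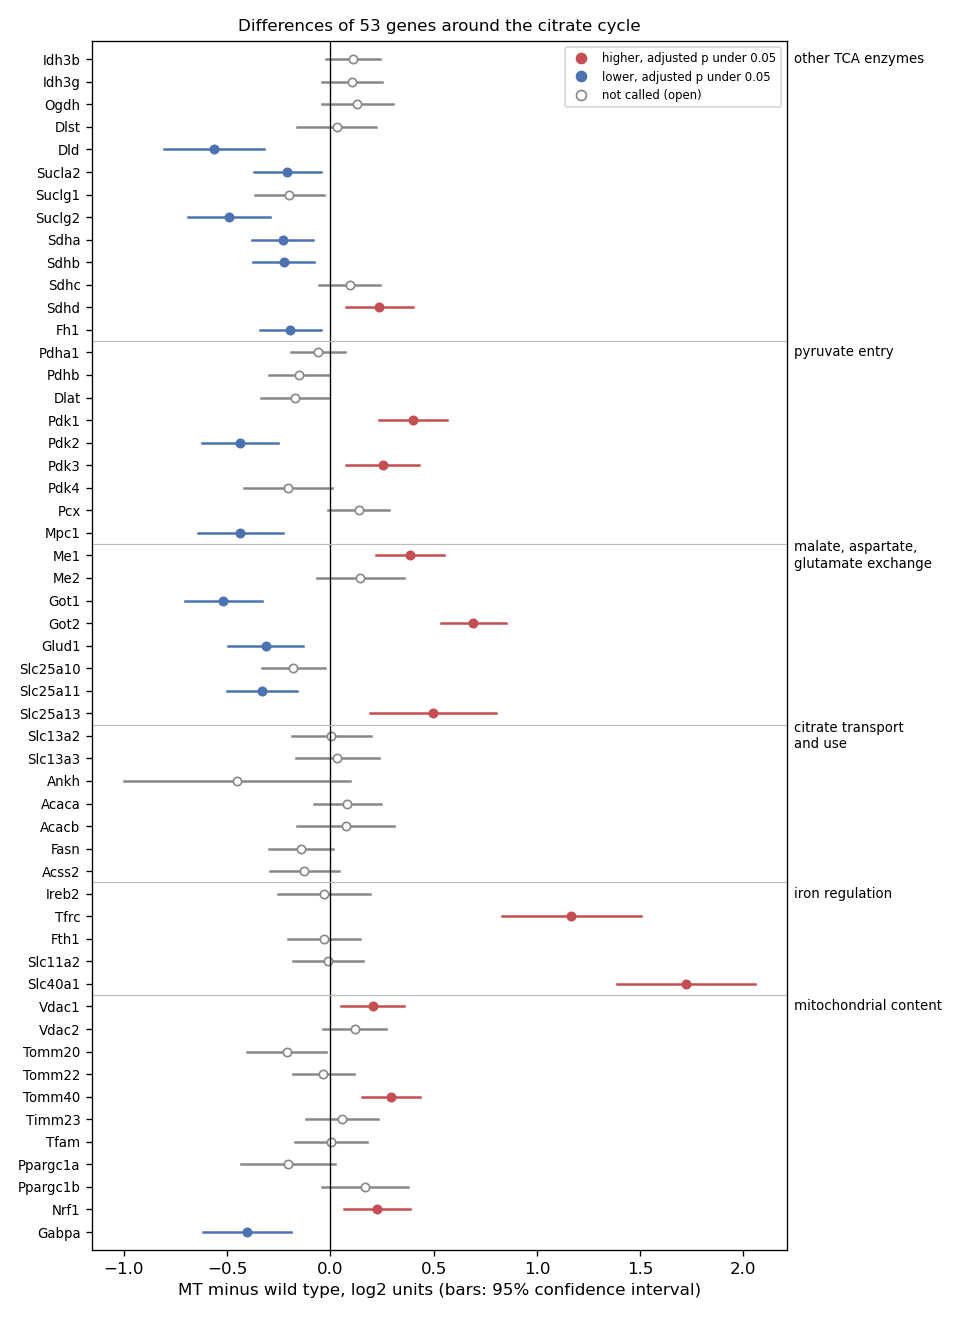
MT minus wild type in log2 units (horizontal axis) with 95% confidence intervals from limma for 53 genes (vertical axis) in 6 lists, n = 4 arrays per group. Red and blue mark the 11 genes called higher and the 12 called lower. The largest differences are those of Slc40a1 (1.72) and Tfrc (1.17), and Got1 and Got2 lie on opposite sides of 0.

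Levels of cell type markers also differed between the groups. Luminal epithelial markers were higher for 7 of 7, with a mean level of 10.95 to 11.14 in wild type and 11.91 to 12.05 in MT. Smooth muscle markers were lower for 7 of 7 (9.46 to 10.25 against 8.42 to 9.25) and fibroblast markers for 6 of 6 (8.86 to 9.53 against 7.99 to 8.59). Adipocyte markers were lower for 3 of 3 (5.69 to 8.45 against 4.93 to 6.39), macrophage markers higher for 3 of 6 (6.70 to 7.34 against 7.50 to 7.62), endothelial markers lower for 1 of 5, basal epithelial markers lower for 3 of 5 and proliferation genes higher for 5 of 5. Over all genes 19.3% were higher and 20.7% lower, so the endothelial count lay near the background. Of 5 measured secretory genes of the prostate, 4 were lower and Hoxb13, a transcription factor of the prostate, was higher, and their mean level was at least 12.49 on the wild-type arrays and at most 10.69 on the MT arrays, so defining prostate transcripts were present on every array. The part of these shifts in the enzyme differences was not tested, and in bulk RNA fewer cells of a type and less RNA per cell cannot be told apart.

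Arrays correlated across probe sets at 0.992 to 0.994 within wild type, 0.996 to 0.997 within MT and 0.968 to 0.973 between the groups. The log2 excess of 3′ over 5′ control probe sets, a sign of RNA degradation, was 0.54 to 0.92 in wild type and 0.45 to 0.64 in MT for Gapdh (exact two-sided permutation p = 0.0857) and 0.71 to 1.05 and 0.57 to 0.85 for Actb (exact two-sided permutation p = 0.114).

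Genes with the profile most like that of Idh3a over the 8 arrays were Aimp2 (Pearson r = 0.996), Limd1 (0.993) and Gm20559 (0.992). Those most like Mdh1 were Atg5 (0.996), Ces2g (0.994) and Glrx (0.994). These are descriptions, since all such profiles share the difference between the groups, and 286 and 363 genes had an r above 0.95 with Idh3a and Mdh1.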

How the data were processed

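Total RNA of 8 samples, isolated with Trizol and RNeasy kits, was labelled with biotin for Affymetrix arrays, per the labels' protocols. The deposited values are log2 levels made with RMA, per the submitters' processing notes, which name no version. Array medians were 6.21 to 6.23, and the small number of arrays limits precision. From these values, used without rescaling or a filter on low values, 64 control probe sets were left out and 22626 fitted with limma 3.58.1 in R 4.3.3 (lmFit, eBayes, no covariate), with Benjamini-Hochberg adjustment over all of them. The fit was tested on simulated data. Of the probe sets, 20380 had a single symbol, 691 several and 1555 none. For genes other than the members, and in the pairs of enzymes, the probe set with the highest mean stood for a gene. The pairs were tested with scipy 1.17.1. Of 64 listed genes, 53 were measured, meaning that they had a probe set with a single symbol. Probe sets with several symbols were not searched for the others. A further planned pair was not computed and is not reported here. Named genes were every member, up to 4 genes per list with the largest change past the threshold, or the highest-mean gene in a list with none, and the 3 closest profiles of 2 members. The members and lists were chosen with earlier results of these data known. Alternatives were another prior, array weights, the replicate number as a block, a level filter, new scaling, other probe set rules, a stricter threshold and leaving out arrays.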

Additional observations from a re-analysis of the deposited data

Results flagged for a closer look

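In the outlier check of 50 groups of 4 values, which sets the gap at one end against the range of the group, 3 groups exceeded Dixon's 95% critical value, and chance gives about 1 in 20 groups. Wild-type array 1 was low at the Idh3a probe set 1432016_a_at, at 8.22 against 8.49 to 8.54 on the other wild-type arrays (gap 0.834 of the range). Wild-type array 3 was high at the Mdh1 probe set 1434319_at, at 5.85 against 5.42 to 5.47 (0.882). MT array 1 was low for Mdh1 minus Mdh2, at 0.92 against 1.06 to 1.08 on the other MT arrays (0.887). Without wild-type array 1 the Idh3a difference was 0.50, and without MT array 1 the Mdh1 minus Mdh2 difference was -0.71. The Mdh1 difference at 1434319_at changed sign without wild-type array 3, from -0.09 to 0.0064.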

How the results depend on the processing

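The 6 higher and 4 lower calls among the member probe sets stayed within 1.5 times of these counts under another prior, array weights, the level filter, both scalings and the stricter threshold, and leaving out each array in turn gave 4 to 7 higher and 4 lower. Where other probe sets were tested the numbers of members differ too. With the brightest probe set per gene 3 of 8 genes were higher and 3 lower, where 19.3% of all genes were higher and 20.7% lower. Averaging per gene gave 2 higher and 2 lower. Unique-type probe sets alone, 8 of the 22 and with no probe set of Idh1, Idh2 or Mdh2, gave 2 higher and 2 lower. Among the 53 listed genes, the 11 higher calls became 7 with unique-type probe sets, 7 with both wild-type array 4 and MT array 2 left out, 6 at the stricter threshold of 0.01, and 7 to 10 when single arrays were left out (7 without MT array 2 or 3). The 12 lower calls became 7 at 0.01 and ranged from 8 to 14 without single arrays. The 3 pair differences kept their sign under every alternative run, namely both scalings, averaging and leaving out arrays. Without single arrays they ran from 0.59 to 0.76 for Idh1 minus Idh2, from -0.78 to -0.70 for Mdh1 minus Mdh2 and from 0.46 to 0.50 for Acly minus Cs. Groups smaller than 4 against 4 cannot reach a p under 0.05 in the exact test, so these are values only. Over all probe sets the 4089 higher and 4463 lower calls became 2447 and 2641 with the brightest probe set per gene, 2403 and 2709 with averaging, and 2499 and 2903 with unique-type probe sets, where fewer were tested. For the other changes the cause was not tested.

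Arrays carry the numbers 1 to 4 in both groups. Deviations from the group means correlated at 0.08 to 0.16 between same-numbered arrays of the groups, and at a mean of -0.04 between differently numbered ones. The value was below 0.1 in at least 1 pair, so the numbers were not taken to pair the samples. Even so, for 8 of 8 arrays the closest match in the other group had the same number. With the replicate block 7 member probe sets were higher and 4 lower. Both Idh1 probe sets then passed (limma adjusted p = 0.0288 and 0.0162) and the Idh3a probe set 1422500_at did not (limma adjusted p = 0.0757), nor did Nrf1 (limma adjusted p = 0.0533). Of the genes of mitochondrial content 2 were then higher and 3 lower. The exact paired test of the enzyme pairs cannot go below 0.125.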
